A study of Rattus norvegicus with 13 samples.

Results

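Wnt ligands, their receptors and their antagonists were followed in rat articular chondrocytes, the cells of joint cartilage, after exposure to the amino sugar glucosamine, to the inflammatory cytokine interleukin-1β (IL-1β), or to both. The members were the probe sets annotated to exactly 1 gene whose symbol begins with Wnt, Fzd, Sfrp or Dkk followed by a digit, or is Lrp5, Lrp6, Ror1, Ror2, Wif1, Frzb, Kremen1, Axin1, Axin2, Tcf7, Tcf7l1, Tcf7l2, Lef1 or Ctnnb1. The rule used names and no measured value. It found 62 of the 31042 probe sets on the array, for 38 of the 14217 genes that are alone on a probe set: 13 ligands, 9 receptors and co-receptors, 9 antagonists or their partners, and 7 genes that act inside the cell. No probe set was found here for Ror1 or Ror2.

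Chondrocytes came from the femoral head cartilage of male Wistar rats aged 2 months, were pooled, and were used after the second passage, with 1 array for each culture flask. There were 4 arrays of cultures given 20 mM glucosamine 6 hours before 10 ng/ml IL-1β and then kept for 14 hours, 4 arrays of cultures given 10 ng/ml IL-1β alone for 14 hours, 2 arrays of cultures given 20 mM glucosamine alone for 20 hours, and 3 arrays of untreated cultures. Because all flasks were seeded from a single cell pool, the p-values measure the spread between flasks and arrays, not between animals. In such bulk RNA, fewer cells of a type and less RNA per cell cannot be told apart.

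Wnt proteins are secreted lipid-modified ligands. They bind Frizzled receptors (Fzd genes) and the co-receptors Lrp5 and Lrp6, and in the canonical branch this stops the Axin-based complex from marking β-catenin (Ctnnb1) for destruction, so that β-catenin enters the nucleus and acts with the TCF/LEF transcription factors. Secreted Frizzled-related proteins (Sfrp genes and Frzb) and Wif1 bind Wnts outside the cell, whereas typical Dickkopf proteins (Dkk) bind Lrp5 and Lrp6 together with Kremen proteins. In cartilage the pathway is known for its part in joint formation and in the maturation and matrix turnover of chondrocytes, and both too much and too little of it damages cartilage in mice.

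Signals are in the linear units of the array, scaled globally by the authors, and some are below 0. For the tests they were set to a floor of 5.71, the 25th percentile of all values, and taken to log2, and 29263 probe sets above that floor on at least 1 array were tested together. Called means a Benjamini-Hochberg adjusted p under 0.05 in limma over all of these, in a single fit of the 4 groups. A fold change is given as at least a value where the lower group was at the floor. Of the 62 member probe sets, 34 were above the floor on all 13 arrays, 24 on some and 4 on none. The 58 tested covered 37 genes, since Wnt16 was at or below the floor on every array. Where a gene had several probe sets, the brightest by mean log2 signal represents it, and for 29 genes that probe set was above the floor on all arrays.

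Both replicate d arrays stood apart. Their median signals were 38.7 in the culture with both agents and 37.9 in the culture with IL-1β, against 20.8 to 24.6 on the other 11 arrays, and their lowest signals reached further below 0, with 1st percentiles of -36.8 and -31.0 against -6.47 to -4.81. Among the 34 member probe sets above the floor on all arrays, the deviation lay with the dim ones. With both agents, 9 of 23 probe sets whose other replicates averaged under 100 were over 2-fold higher on replicate d and 1 was over 2-fold lower. With IL-1β alone these counts were 9 and 1 of 22. None of the 11 and 12 brighter probe sets differed by 2-fold on replicate d. Probe sets at the floor on any array were left out, among them dim Tcf7l1 and Fzd5 probe sets that fell to the floor on IL-1β replicate d. The counts thus cannot show how rises and falls on replicate d compare. Wnt2b showed the widest gap, with signals of 15.4, 5.96, 6.00 and 149.9 on replicates a to d with both agents and 10.99, 10.95, 8.86 and 74.7 with IL-1β. Wnt1 had 206 and 221 on these 2 arrays, against 20.5 to 46.4 on all the others. Results that rest on these arrays are given with and without them.

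**Figure D1:**
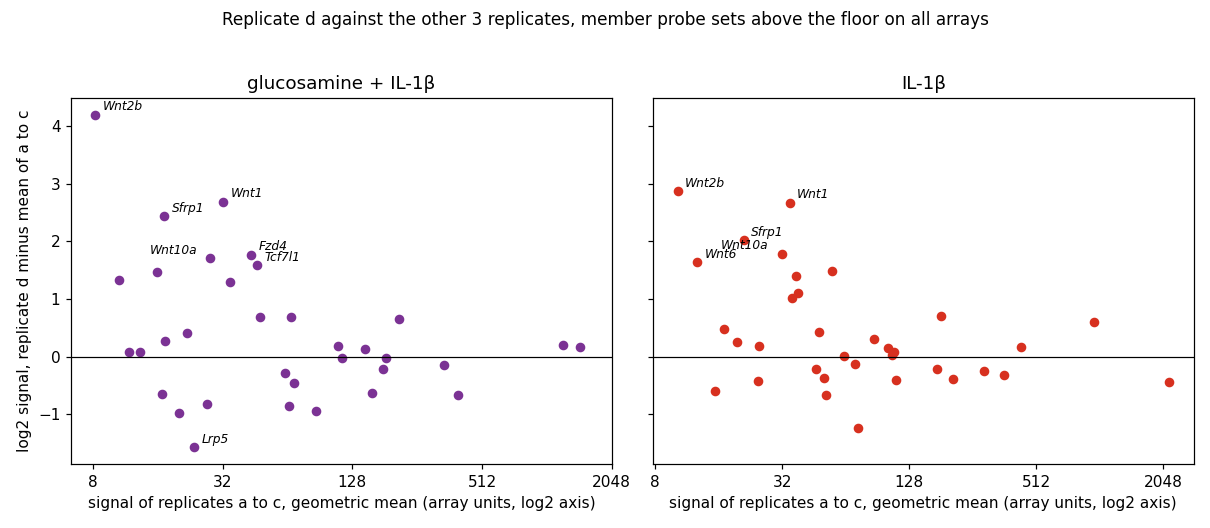
Difference in log2 signal between replicate d and the mean of replicates a to c (vertical axis) against the geometric mean signal of replicates a to c (horizontal axis, array units, log2 axis), for the 34 member probe sets above the floor on all arrays, in cultures with both agents (left) and with IL-1β (right). Dim probe sets such as Wnt2b, Wnt1, Sfrp1 and Wnt10a lie above 0, and those with signals of 100 or more lie near it.

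Set against its markers, the labelled cell type was present: 7 of the 9 chondrocyte genes listed were measured and all 7 were above the floor on every array. Their summed signal was 5738 to 6862 with both agents, 5184 to 6277 with IL-1β, 7322 to 7652 with glucosamine and 9508 to 10752 in untreated cultures, so it was lower in each treated group than in any untreated culture. The 5 listed genes of dedifferentiated chondrocytes and fibroblasts, collagens among them, were also bright, with sums of 7995 to 9806, 7814 to 9316, 8627 to 9691 and 9894 to 11164 in the same order of groups. None of the 5 leukocyte markers exceeded the floor on all arrays, and their summed signal ranged over 20.7 to 105 with both agents, 22.1 to 88.0 with IL-1β, 15.3 to 19.8 with glucosamine and 27.7 to 31.1 in untreated cultures. The 3 adipocyte markers, none above the floor on all arrays, summed to 15.3 to 104 with both agents, 49.0 to 115 with IL-1β, 9.13 to 10.8 with glucosamine and 6.80 to 12.7 in untreated cultures. Of 4 measured endothelial markers 3 were above the floor on all arrays, with sums of 64.1 to 159, 99.3 to 206, 65.1 to 69.5 and 61.2 to 87.7 in the same order. The adipocyte and endothelial sums of every IL-1β culture thus lay above those of every untreated one. The 3 skeletal muscle markers were brighter, with sums of 597 to 724, 457 to 587, 585 to 614 and 472 to 516 in the same order. Of them only Myh1, at 387 to 712, was above the floor on all arrays. None of the 3 measured osteoblast markers was. Their sums were 11.9 to 40.5, 19.9 to 45.3, 8.34 to 8.98 and 22.3 to 30.8 in the same order. The part of these marker levels in the differences below was not tested.

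IL-1β alone changed 19 of the 58 member probe sets, 5 upward and 14 downward, a share of 32.8% where 24.1% of all probe sets were called (11.1% up and 13% down). By gene, 12 of 37 representatives were called: Wnt9a, Wnt5b, Wnt4, Fzd1 and Fzd3 rose, and Fzd2, Fzd4, Fzd8, Lrp6, Frzb, Dkk3 and Sfrp4 fell. With glucosamine alone 12 member probe sets were called, of which 1 was higher and 11 lower, or 20.7% against a background of 14.7% (7.14% up and 7.56% down). Its 8 genes were Fzd3, which rose, and Fzd2, Fzd4, Lrp6, Sfrp2, Frzb, Dkk3 and Tcf7l2, which fell. With both agents, 15 probe sets differed from untreated cultures, 3 upward and 12 downward, 25.9% against 23.9% (11.5% up and 12.4% down). Without both replicate d arrays the IL-1β share was 49.1%, against 35.1% of all probe sets. That for glucosamine was then 28.3% against 25.7%, and that for both agents 35.8% against 35.5%. With only the glucosamine and untreated arrays fitted, the glucosamine share was 27.6% against 25.5%. The median log2 fold change over the member probe sets was -0.11 for IL-1β, -0.20 for glucosamine and -0.23 for both agents, against 0.10, 0 and 0.13 over all probe sets tested. With 1 probe set per gene the member medians were 0.06, -0.20 and 0, so only that for glucosamine stayed below 0. Without both replicate d arrays the medians over all probe sets were 0, -0.0016 and 0.018. These comparisons share the untreated arrays.

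**Figure D2:**
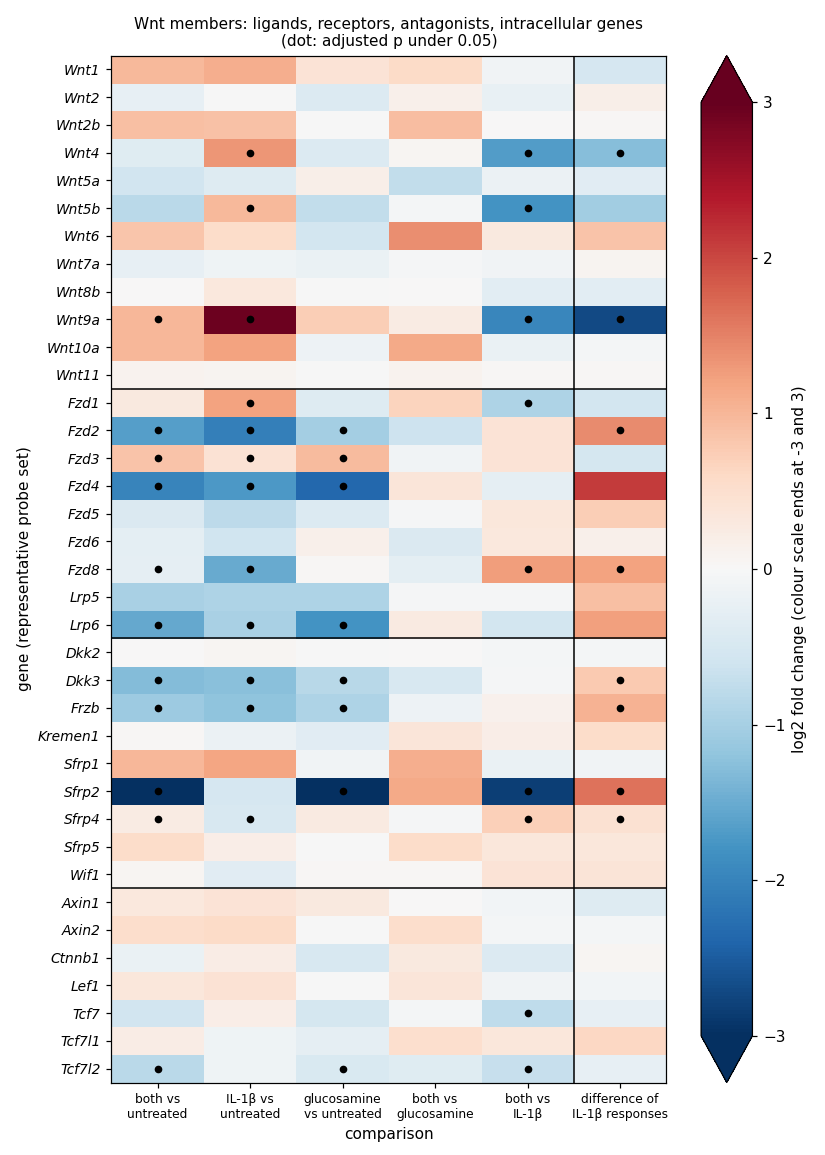
Log2 fold changes of the 37 tested member genes (rows, by role from ligands at the top to intracellular genes at the bottom) in 5 comparisons and in the difference of the 2 IL-1β responses (columns); red is higher and blue lower in the group named first, and a dot marks an adjusted p under 0.05. The column for both agents against glucosamine holds no dot, and the deepest blue cells are Sfrp2 wherever glucosamine was present.

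The ligands called with IL-1β all rose. Of 12 tested, 3 were called (25.0%, near the 24.1% of all probe sets called in either direction). Each of the 3 rose, where 11.1% of all probe sets rose and 13% fell. Wnt9a, which in mouse and chick embryos helps to set where joints form, changed most. Its signals were 24.3, 29.3, 14.7 and 29.0 with both agents, 76.4, 100.4, 85.6 and 107 with IL-1β, 22.3 and 17.6 with glucosamine, and 10.7, 10.8 and 14.4 in untreated cultures. The 4 IL-1β cultures lay above all 9 others. IL-1β raised it 7.73-fold over untreated cultures (log2 fold change 2.95 ± 0.27, SE, adjusted p = 6.69e-06), and with both agents it was 3.90-fold lower than with IL-1β alone (-1.96 ± 0.25, adjusted p = 0.000121). With both agents Wnt9a still exceeded the untreated cultures, by 0.99 ± 0.27 on the log2 scale (adjusted p = 0.0186), a call that was lost without replicate b of the cultures with both agents or without untreated replicate a or b (0.88 to 0.92, adjusted p 0.0523 to 0.0736). That call was also lost with the floor at 32, after quantile normalization and with only the groups compared. The analysis of variance with Tukey's test of the study's methods lost it too.

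Wnt5b, a ligand of the non-canonical branch that acts on growth plate chondrocytes in mice, had signals of 19.4, 14.6, 16.4 and 10.7 with both agents, 35.4, 54.1, 56.8 and 64.0 with IL-1β, 12.5 and 19.5 with glucosamine, and 27.2, 25.9 and 25.4 in untreated cultures. All 6 cultures with glucosamine lay below all untreated ones, which lay below all IL-1β ones. The rise with IL-1β was 1.97-fold (log2 fold change 0.97 ± 0.28, adjusted p = 0.0251), and it missed the threshold when IL-1β replicate b, c or d or any single untreated array was left out (0.87 to 1.00, adjusted p 0.0519 to 0.0848). The difference between both agents and IL-1β was larger, at 3.45-fold lower (-1.79 ± 0.26, adjusted p = 0.000357). Against untreated cultures, Wnt5b differed by -0.74 with glucosamine (adjusted p = 0.208) and by -0.81 with both agents (adjusted p = 0.0591).

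Wnt4, which is also expressed in forming joints, was near the floor except with IL-1β. It had signals of 3.60, 6.61, -0.0214 and -1.38 with both agents, 23.9, 15.3, 20.7 and 17.2 with IL-1β, 4.05 and 1.70 with glucosamine, and 4.01, 10.9 and 7.05 in untreated cultures. All IL-1β cultures lay above the rest. IL-1β raised Wnt4 at least 2.49-fold over untreated cultures (adjusted p = 0.00132), and with both agents it was at least 3.20-fold lower than with IL-1β alone (adjusted p = 0.000144). The rise with IL-1β was lost with the floor at the 10th percentile of all values (1.49, adjusted p = 0.223). Both calls, and those of Wnt5b, were lost under the analysis of variance with Tukey's test of the study's methods. For both genes the analysis of variance p was not under 0.0001, which the methods ask for before Tukey's test.

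Of the other ligands none was called in any comparison when all arrays were used. Wnt5a signals were 14.6 to 20.8 with both agents, 17.4 to 23.2 with IL-1β, 27.7 and 32.3 with glucosamine, and 23.5 to 31.1 in untreated cultures, so the groups given IL-1β did not overlap the others, but differences from untreated cultures were -0.56 with both agents (adjusted p = 0.101) and -0.39 with IL-1β (adjusted p = 0.276). Without both replicate d arrays Wnt5a was called lower with both agents (-0.63 ± 0.19, adjusted p = 0.0242). Wnt10a was 14.8 to 22.0 on the 5 arrays without IL-1β and 26.7 to 42.6 on the arrays with it other than replicates d, which read 91.7 and 110.0. Its IL-1β difference of 1.20 ± 0.53 had an adjusted p of 0.141. Without both replicate d arrays it was 0.75 ± 0.22 with an adjusted p of 0.0228. Wnt6 likewise reached 43.7 and 39.2 on replicates d, against 6.61 to 18.4 elsewhere. Wnt2 reached at most 18.8 and Wnt7a 21.4 on any array, and Wnt8b, Wnt11 and Wnt16 were above the floor on 1, 2 and 0 arrays.

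The RefSeq promoter table (assembly GRCr8, 250 bases before to 50 bases after the start of each gene) held 26 of the 38 member genes, Wnt9a among them. Its window, chr10:44593441-44593740 on the plus strand, is shown as that of the ligand with the largest called rise. It was searched on both strands for the TCF/LEF core, spelled as CTTTGAA and, with another final base, as CTTTGAT, and with another base before the last as CTTTGTA and also, with both of these changed, as CTTTGTT. It holds none of them.
Wnt9a: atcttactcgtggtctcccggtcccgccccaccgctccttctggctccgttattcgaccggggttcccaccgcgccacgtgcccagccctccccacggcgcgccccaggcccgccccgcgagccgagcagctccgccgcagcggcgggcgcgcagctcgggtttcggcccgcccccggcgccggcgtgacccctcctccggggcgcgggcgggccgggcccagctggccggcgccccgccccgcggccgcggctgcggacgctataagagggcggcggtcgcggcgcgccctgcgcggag

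Among the receptors, 6 of 9 were called with IL-1β, 2 upward and 4 downward (66.7%, against 24.1% of all probe sets), and 4 of 9 with glucosamine (44.4%, against 14.7%). Fzd1 and Fzd8 went opposite ways with IL-1β. Fzd1 had signals of 205, 221, 205 and 329 with both agents, 516, 390.2, 404 and 488 with IL-1β, 150.3 and 147 with glucosamine, and 196, 192 and 192 in untreated cultures. Its IL-1β cultures lay above all others. It rose 2.31-fold with IL-1β (log2 fold change 1.21 ± 0.16, adjusted p = 0.000116) and was 1.90-fold lower with both agents than with IL-1β (-0.92 ± 0.14, adjusted p = 0.000577). The highest culture with both agents was replicate d; without both replicate d arrays the last difference was -1.04 ± 0.09. Both Fzd1 calls were lost under the methods' analysis of variance, whose p was not under the 0.0001 asked for before Tukey's test.

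Fzd8 signals were 148, 142, 149 and 160.5 with both agents, 62.0, 58.8, 68.9 and 63.7 with IL-1β, 179 and 189.7 with glucosamine, and 183, 178 and 179 in untreated cultures. IL-1β lowered it 2.84-fold against untreated cultures (-1.51 ± 0.07, adjusted p = 2.72e-08). With both agents it was 2.37-fold higher than with IL-1β (1.24 ± 0.07, adjusted p = 1.07e-07) and 1.20-fold below untreated cultures (-0.26 ± 0.07, adjusted p = 0.0167). That last call was lost without any single untreated array (adjusted p 0.0528 to 0.07).

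Fzd2, Fzd4 and Lrp6 were lower in each treated group than in untreated cultures. Fzd2 signals were 190.0, 133, 157 and 102 with both agents, 87.8, 96.2, 143 and 109 with IL-1β, 189 and 256 with glucosamine, and 454, 437 and 439 in untreated cultures. No treated culture reached an untreated one. Fzd2 was 3.12-fold lower with both agents (-1.64 ± 0.21, adjusted p = 0.00011), 4.14-fold lower with IL-1β (-2.05 ± 0.21, adjusted p = 1.67e-05) and 2.02-fold lower with glucosamine (-1.01 ± 0.25, adjusted p = 0.017). The glucosamine call was lost without glucosamine replicate a or untreated replicate a (-0.79 to -0.99, adjusted p 0.0526 to 0.182).

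Fzd4, which Wnts and the eye protein norrin both bind, had signals of 47.0, 38.0, 45.7 and 148 with both agents, 55.0, 42.7, 70.4 and 153 with IL-1β, 41.7 and 49.7 with glucosamine, and 249, 219.8 and 232 in untreated cultures. Again no treated culture reached an untreated one, and the replicate d arrays were the nearest. It was 3.96-fold lower with both agents (-1.98 ± 0.48, adjusted p = 0.00948), 3.29-fold lower with IL-1β (-1.72 ± 0.48, adjusted p = 0.0208) and 5.12-fold lower with glucosamine (-2.36 ± 0.57, adjusted p = 0.0157). Without both replicate d arrays these differences were -2.43 ± 0.17, -2.09 ± 0.17 and -2.36 ± 0.19. With them, the IL-1β call was lost without IL-1β replicate a or b or any untreated array (-1.47 to -1.76, adjusted p 0.0513 to 0.0711), and the glucosamine call without either glucosamine array or untreated replicate a (-2.23 to -2.48, adjusted p 0.0502 to 0.114). A dimmer Fzd4 probe set read 25.5 to 31.8 in untreated cultures and at most 12.5 in any treated one, and was called lower in the same 3 comparisons. The calls of both Fzd4 probe sets were lost under the methods' analysis of variance, whose p was not under 0.0001 for either.

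Lrp6, the co-receptor, had signals of 67.9, 44.7, 96.0 and 107 with both agents, 123, 118, 86.7 and 115 with IL-1β, 63.9 and 60.7 with glucosamine, and 209, 223 and 214 in untreated cultures. It was 2.88-fold lower with both agents (-1.53 ± 0.25, adjusted p = 0.000709), 1.96-fold lower with IL-1β (-0.97 ± 0.25, adjusted p = 0.0128) and 3.46-fold lower with glucosamine (-1.79 ± 0.30, adjusted p = 0.00148). Its relative Lrp5 gave 32.03, 15.9, 25.7 and 7.94 with both agents, 13.1, 15.5, 24.1 and 23.7 with IL-1β, 12.1 and 28.1 with glucosamine, and 32.5, 41.0 and 33.0 in untreated cultures. Every treated culture was below every untreated one, but the replicates spread widely and no comparison was called, with an IL-1β difference of -0.93 (95% interval -1.98 to 0.11) and a glucosamine difference of -0.94 (-2.18 to 0.31). Without both replicate d arrays Lrp5 was called lower with IL-1β (-1.05 ± 0.37, adjusted p = 0.0498).

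Fzd3 was called higher with glucosamine alone. It had signals of 60.0, 71.4, 56.6 and 51.0 with both agents, 51.2, 45.6, 42.8 and 39.9 with IL-1β, 67.6 and 59.4 with glucosamine, and 32.1, 34.7 and 32.1 in untreated cultures. Each treated group lay above the untreated one. The rise was 1.80-fold with both agents (0.85 ± 0.15, adjusted p = 0.00113) and 1.92-fold with glucosamine (0.94 ± 0.18, adjusted p = 0.00319). Neither was called after quantile normalization between arrays or under the methods' analysis of variance. The smaller IL-1β rise, 0.44 ± 0.15, had an adjusted p of 0.0491 and was lost on leaving out 10 of the 13 arrays singly (0.37 to 0.48, adjusted p 0.066 to 0.143), the 3 exceptions being IL-1β replicate d and replicates b and d with both agents. Fzd5 and Fzd6 representatives were not called with all arrays, but without both replicate d arrays that of Fzd5 was lower with both agents (-0.61 ± 0.20, adjusted p = 0.0407) and with IL-1β (-1.03 ± 0.20, adjusted p = 0.00277). The dimmer Fzd5 probe set read 24.2, 26.5, 29.0 and 15.1 with both agents, 9.81, 15.3, 17.6 and 0.709 with IL-1β, 36.9 and 32.9 with glucosamine, and 32.8, 35.0 and 48.4 in untreated cultures, at least 3.44-fold lower with IL-1β (adjusted p = 0.00503).

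**Figure D3:**
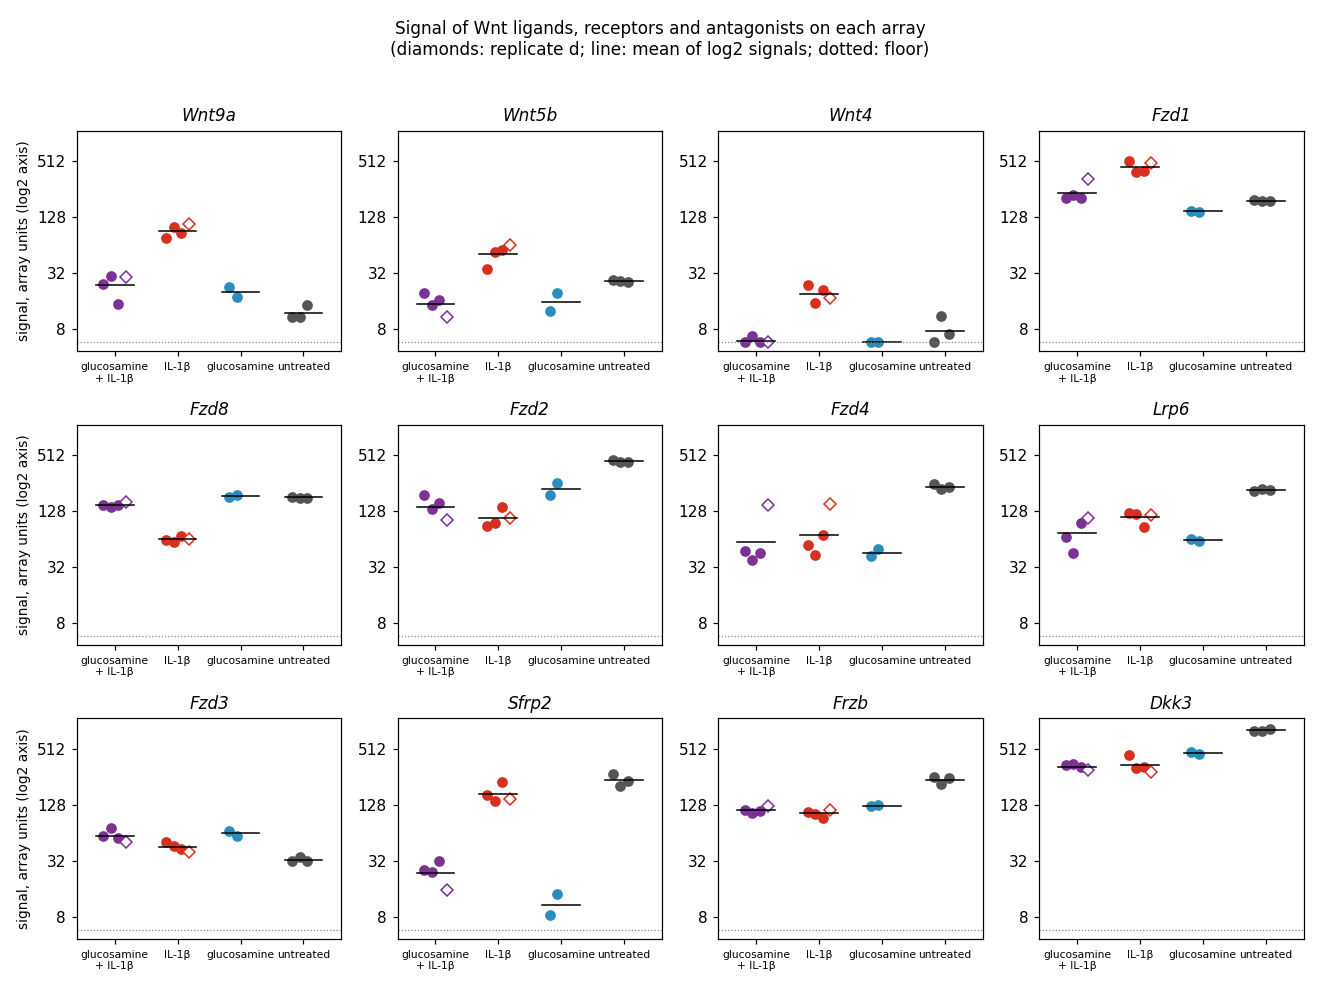
Signal on each array (vertical axis, array units on a log2 axis) for 12 members, with the 4 groups along the horizontal axis; diamonds are replicate d, lines are means of log2 signals, and the dotted line is the floor of 5.71, at which lower values are drawn. Wnt9a, Wnt5b, Wnt4 and Fzd1 stand high only with IL-1β alone, Fzd8 stands low only there, and Sfrp2 is low in all 6 cultures given glucosamine.

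The antagonists held the deepest change of any member. Sfrp2, a secreted Frizzled-related protein, had signals of 25.7, 24.3, 32.03 and 15.4 with both agents, 162, 142, 224 and 149 with IL-1β, 8.22 and 14.1 with glucosamine, and 275, 207 and 231 in untreated cultures. All 6 cultures with glucosamine were at 32.03 or below, and all 7 without it at 142 or above. It fell 21.9-fold with glucosamine (-4.45 ± 0.32, adjusted p = 2.93e-06) and was 10.0-fold below untreated cultures with both agents (-3.32 ± 0.26, adjusted p = 2.85e-06) and 7.07-fold below IL-1β cultures (-2.82 ± 0.25, adjusted p = 6.25e-06). IL-1β alone differed from untreated cultures by -0.50 (95% interval -1.08 to 0.08, adjusted p = 0.226). A second Sfrp2 probe set gave 15.7-fold, 9.62-fold and 6.12-fold falls in the same 3 comparisons. Each of these 6 calls held under every alternative setting run, single-array omissions included.

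The Sfrp2 window, chr2:171387286-171387585 on the plus strand of GRCr8, is shown as that of the member with the largest called fall. It holds none of the 4 TCF/LEF cores on either strand.
Sfrp2: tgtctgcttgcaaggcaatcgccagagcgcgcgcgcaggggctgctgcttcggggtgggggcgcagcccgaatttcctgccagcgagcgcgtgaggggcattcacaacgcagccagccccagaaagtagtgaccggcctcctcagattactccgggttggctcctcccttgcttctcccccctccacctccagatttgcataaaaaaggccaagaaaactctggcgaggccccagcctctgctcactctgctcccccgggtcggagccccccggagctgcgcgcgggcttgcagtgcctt

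Frzb and Dkk3 fell with either agent. Frzb, another Wnt-binding antagonist, the loss of which worsens cartilage damage in mouse arthritis models, had signals of 114, 105, 109.5 and 124 with both agents, 108, 103, 93.0 and 112 with IL-1β, 124 and 128 with glucosamine, and 256, 218 and 249.7 in untreated cultures. It was 2.13-fold lower with both agents (-1.09 ± 0.09, adjusted p = 3.12e-06), 2.32-fold lower with IL-1β (-1.21 ± 0.09, adjusted p = 1e-06) and 1.91-fold lower with glucosamine (-0.93 ± 0.11, adjusted p = 9.76e-05). A second Frzb probe set was called lower in the same 3 comparisons, with log2 fold changes of -1.47, -1.75 and -1.01. Its glucosamine call, with an adjusted p of 0.0436, was lost without any of 10 arrays, untreated replicates a to c and both glucosamine arrays among them (-0.92 to -1.09, adjusted p 0.0509 to 0.228).

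Dkk3, a divergent Dickkopf protein that is not a typical Lrp-binding inhibitor, had signals of 342, 357, 327 and 308 with both agents, 447, 320.4, 329 and 291 with IL-1β, 477 and 452 with glucosamine, and 812, 814 and 837 in untreated cultures. It was 2.47-fold lower with both agents (-1.30 ± 0.12, adjusted p = 7.48e-06), 2.40-fold lower with IL-1β (-1.26 ± 0.12, adjusted p = 8.12e-06) and 1.77-fold lower with glucosamine (-0.82 ± 0.14, adjusted p = 0.00186). The other 3 Dkk3 probe sets were above the floor on 8, 1 and 0 arrays.

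Sfrp4 went the other way with glucosamine present. Its signals were 122, 109.5, 114 and 113 with both agents, 73.5, 70.4, 68.5 and 64.8 with IL-1β, 117 and 116 with glucosamine, and 93.8, 95.0 and 99.6 in untreated cultures. The groups did not overlap except for the 2 with glucosamine. IL-1β lowered it 1.39-fold (-0.47 ± 0.07, adjusted p = 0.000427), and with both agents it was 1.65-fold higher than with IL-1β (0.72 ± 0.07, adjusted p = 1.02e-05). The excess over untreated cultures was 0.28 with glucosamine (adjusted p = 0.0524, and 0.0201 without both replicate d arrays) and 0.25 with both agents (adjusted p = 0.0245). The call with both agents was lost without replicate a or c with both agents or untreated replicate a or b (0.22 to 0.25, adjusted p 0.0541 to 0.0989).

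Other antagonists were dim or not called. Wif1 was 49.8 to 75.3 with both agents, 39.3 to 55.7 with IL-1β, 60.8 and 62.6 with glucosamine, and 59.1 to 61.7 in untreated cultures. The brightest Sfrp1 probe set was not called, with 92.3 and 84.8 on replicates d against 10.3 to 25.6 on the other arrays. Without these arrays it was called higher with IL-1β (0.69 ± 0.20, adjusted p = 0.0203). A dim Sfrp1 probe set read 9.12 to 14.2 in untreated cultures and below the floor on all 10 treated arrays, at least 2.09-fold lower in each treated group, so no direction is given for Sfrp1. Dkk2, Sfrp5 and Kremen1 were above the floor on 1, 3 and 4 arrays.

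Inside the cell, none of the 7 representatives was called with IL-1β when all arrays were used, where 24.1% of all probe sets were. Without both replicate d arrays Axin1 and Tcf7l1 were. Tcf7l2, a TCF factor that carries β-catenin to DNA, fell with glucosamine. Its signals were 176, 175, 179 and 152 with both agents, 300.04, 292, 275 and 243 with IL-1β, 231 and 207 with glucosamine, and 314, 283 and 304 in untreated cultures. It was 1.77-fold lower with both agents than in untreated cultures (-0.82 ± 0.09, adjusted p = 2.58e-05), 1.63-fold lower than with IL-1β (-0.70 ± 0.08, adjusted p = 5.45e-05), and 1.37-fold lower with glucosamine than in untreated cultures (-0.46 ± 0.10, adjusted p = 0.0109). The last call was lost without glucosamine replicate b (-0.38, adjusted p = 0.129). None of the dimmer Tcf7l2 probe sets was called in these comparisons with all arrays, although 1 of them, above the floor on 7 arrays, was at least 1.80-fold lower with IL-1β than in untreated cultures (adjusted p = 0.0167), a call lost without untreated replicate b or c (-0.68 to -0.72). Tcf7l1, a TCF factor that mostly represses, was not called on its brighter probe set with all arrays, and without both replicate d arrays was lower there with IL-1β (-0.49 ± 0.16, adjusted p = 0.0384). The dimmer read 17.8, 13.03, 16.4 and -38.4 with IL-1β against 84.8, 61.8 and 58.8 in untreated cultures, at least 5.56-fold lower (adjusted p = 0.013), and lost the call without untreated replicate a (-2.31, adjusted p = 0.0574).

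Tcf7 had signals of 17.0, 9.22, 14.8 and 14.0 with both agents, 25.2, 23.9, 24.7 and 18.3 with IL-1β, 11.5 and 16.9 with glucosamine, and 21.2, 19.4 and 19.5 in untreated cultures. The cultures with glucosamine lay below those without it. It was 1.70-fold lower with both agents than with IL-1β (-0.77 ± 0.25, adjusted p = 0.044), a call lost on leaving out 10 arrays singly, all but IL-1β replicate d and replicates a and d with both agents (-0.59 to -0.81, adjusted p 0.0512 to 0.125). Lef1 was level on most arrays and high on replicates d, with 35.4, 34.9, 33.1 and 84.9 with both agents, 36.9, 39.3, 38.2 and 82.3 with IL-1β, 33.2 and 34.2 with glucosamine, and 31.1, 35.1 and 36.0 in untreated cultures. No comparison of it was called.

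The β-catenin gene Ctnnb1 gave different pictures on its 3 bright probe sets. The brightest read 1419, 1386, 1597 and 1639 with both agents, 2649, 2288, 1704 and 1602 with IL-1β, 1495 and 1025 with glucosamine, and 1567, 1769 and 1848 in untreated cultures, with no call on all arrays and overlapping groups, and was lower with both agents than with IL-1β without both replicate d arrays (-0.57 ± 0.18, adjusted p = 0.0291). Another read 422, 422, 347 and 249 with both agents, 108, 205, 264 and 296 with IL-1β, 369 and 506 with glucosamine, and 411, 403 and 414 in untreated cultures. On it IL-1β was 2.01-fold below untreated cultures (adjusted p = 0.0313), a call lost without IL-1β replicate b or any untreated array (-0.99 to -1.02, adjusted p 0.0599 to 0.0907). The remaining one was not called with all arrays. IL-1β replicate a was the highest of all arrays on the first and the lowest on the second, so no direction is given for Ctnnb1.

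Axin2, a feedback inhibitor that canonical Wnt signalling itself turns on, was barely above background. It read -1.26, 3.37, 2.19 and 24.1 with both agents, 5.67, 4.44, 9.53 and 17.2 with IL-1β, -0.292 and 0.353 with glucosamine, and 3.36, 1.24 and 4.13 in untreated cultures. It was above the floor on 3 arrays, IL-1β replicates c and d and replicate d with both agents, and at this signal a difference between the groups was not detectable. Axin1, its constitutive relative, was 163 to 205 with both agents, 158 to 246 with IL-1β, 198 and 162 with glucosamine, and 134 to 158 in untreated cultures, with no call. Its IL-1β difference of 0.40 ± 0.14 had an adjusted p of 0.0619, and of 0.017 at 0.50 ± 0.14 without both replicate d arrays. The Axin2 window, chr10:94398535-94398834 on the plus strand of GRCr8, is shown as an example of a member window that holds the TCF/LEF core, here 2 copies in capitals that start 232 and 132 bases before the start site.
Axin2: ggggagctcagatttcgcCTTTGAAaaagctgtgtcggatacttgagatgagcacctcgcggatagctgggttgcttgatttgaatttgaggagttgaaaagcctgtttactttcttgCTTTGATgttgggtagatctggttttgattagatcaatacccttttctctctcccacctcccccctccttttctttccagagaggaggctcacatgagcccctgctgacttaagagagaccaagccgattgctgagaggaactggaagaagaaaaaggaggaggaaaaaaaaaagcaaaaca
Of the 26 member windows 3 held at least 1 core (11.5%: Axin2, Tcf7 and Sfrp5), against 5719 of all 33469 windows of 300 bases in the table (17.1%). A match is a description of the letters and not a binding site.

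The study asked whether glucosamine alters what IL-1β does to chondrocytes. With both agents against IL-1β alone, 10 member probe sets were called, 2 upward and 8 downward, 17.2% against 23.3% of all probe sets (11.9% up and 11.4% down). Without replicate d with both agents the count was 18 of 57 (31.6%, against 27.8% of all), and without both replicate d arrays 21 of 53, 9 upward and 12 downward (39.6%, against 34.6%). By gene, with all arrays, 9 of 37 were called: Fzd8 and Sfrp4 were higher with both agents, and Wnt9a, Wnt5b, Wnt4, Fzd1, Sfrp2, Tcf7 and Tcf7l2 were lower. This comparison shares the IL-1β arrays with that of IL-1β and untreated cultures. Lrp6 (-0.70 ± 0.24, adjusted p = 0.0431), Fzd3 (0.43 ± 0.12, adjusted p = 0.0228) and Wif1 (0.44 ± 0.12, adjusted p = 0.0166) were among those called between both agents and IL-1β without the replicate d arrays but not with them.

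Against glucosamine alone, IL-1β added in its presence changed none of the 58 member probe sets, where 1.79% of all were called (0.933% up and 0.861% down). At an unadjusted p under 0.05 there were 8 (13.8%, against 7.77% of all), and the analysis of variance with Tukey's test of the study's methods gave 2 (3.45%, against 2.96%). Without both replicate d arrays 5 of 53 were called (9.43%, against 3.24%), where Sfrp2 (1.33 ± 0.26, adjusted p = 0.0211), Wnt6 (1.02 ± 0.23, adjusted p = 0.0459) and Fzd1 (0.50 ± 0.11, adjusted p = 0.031) were higher with both agents and Fzd8 (-0.33 ± 0.08, adjusted p = 0.0458) and Tcf7l2 (-0.31 ± 0.07, adjusted p = 0.0436) were lower. With those arrays, Sfrp2 stood at 1.13 ± 0.30 (adjusted p = 0.118) and Fzd1 at 0.66 ± 0.18 (adjusted p = 0.118).

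The difference between the IL-1β response with glucosamine and that without it was tested directly as an interaction on the log2 scale. It was called for 10 member probe sets, 8 positive and 2 negative, 17.2% against 8.54% of all (3.98% positive and 4.57% negative), and for 8 of 37 representatives. Wnt9a had the most negative value, -2.71 ± 0.41 (adjusted p = 0.00125): its IL-1β response was 0.24 ± 0.30 with glucosamine and 2.95 ± 0.27 without. Fzd8 had 1.21 ± 0.11 (adjusted p = 2.55e-05), with responses of -0.30 ± 0.08 and -1.51 ± 0.07. Frzb (1.05 ± 0.13, adjusted p = 0.000369), Fzd2 (1.42 ± 0.31, adjusted p = 0.015) and Dkk3 (0.78 ± 0.18, adjusted p = 0.0174) were also called. Their responses were -0.16, -0.63 and -0.48 with glucosamine and -1.21, -2.05 and -1.26 without it, and in each the glucosamine cultures were lower than untreated ones. For Sfrp2 the interaction was 1.63 ± 0.40 (adjusted p = 0.0261), with responses of 1.13 and -0.50. For Sfrp4 it was 0.45 ± 0.11 (adjusted p = 0.0256), with responses of -0.03 and -0.47.

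The interaction rests on only 2 glucosamine arrays, and several of these calls were lost without 1 array. The number of calls was 3 without glucosamine replicate a, a share of 5.17% against 5.08% of all probe sets. It was 6 without glucosamine replicate b (10.3%, against 5.43%). Fzd2 was lost without glucosamine replicate a (1.20, adjusted p = 0.107) and Dkk3 without either glucosamine array (0.74 to 0.82, adjusted p 0.0632 to 0.0919). Sfrp2 was lost without any of 5 arrays, namely glucosamine replicate a, replicate a with both agents, IL-1β replicate b and untreated replicates a and c (1.24 to 1.65, adjusted p 0.0516 to 0.169). Sfrp4 was lost without any of 7 arrays, both glucosamine arrays, replicates a and c with both agents and each untreated array (0.42 to 0.46, adjusted p 0.0535 to 0.106). The Wnt9a, Fzd8 and Frzb calls were kept under each single-array omission. The second Frzb and Sfrp2 probe sets were not called for the interaction with all arrays. Without both replicate d arrays they were, at 1.34 (adjusted p = 0.00227) and 1.51 (adjusted p = 0.0214). For the dim Fzd4 and Sfrp1 probe sets (2.38 and 1.06), glucosamine cultures were at the floor, so a further fall there could not be measured. For Wnt4 (-1.27 ± 0.36, adjusted p = 0.0499) the glucosamine cultures, untreated replicate a and all cultures with both agents but replicate b were at the floor. Wnt4 differences below the floor could not be measured. The Wnt4 call was lost on leaving out 10 arrays singly, all but IL-1β replicates b and d and untreated replicate b (-1.06 to -1.32, adjusted p 0.0597 to 0.177), the Fzd4 call without either glucosamine array (adjusted p 0.0603 to 0.0628) and the Sfrp1 call without glucosamine replicate a (adjusted p = 0.0513). On the bright Fzd4 probe set the interaction was 2.09 ± 0.72 with an adjusted p of 0.122, and 2.02 ± 0.26 with an adjusted p of 0.000531 without both replicate d arrays.

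**Figure D4:**
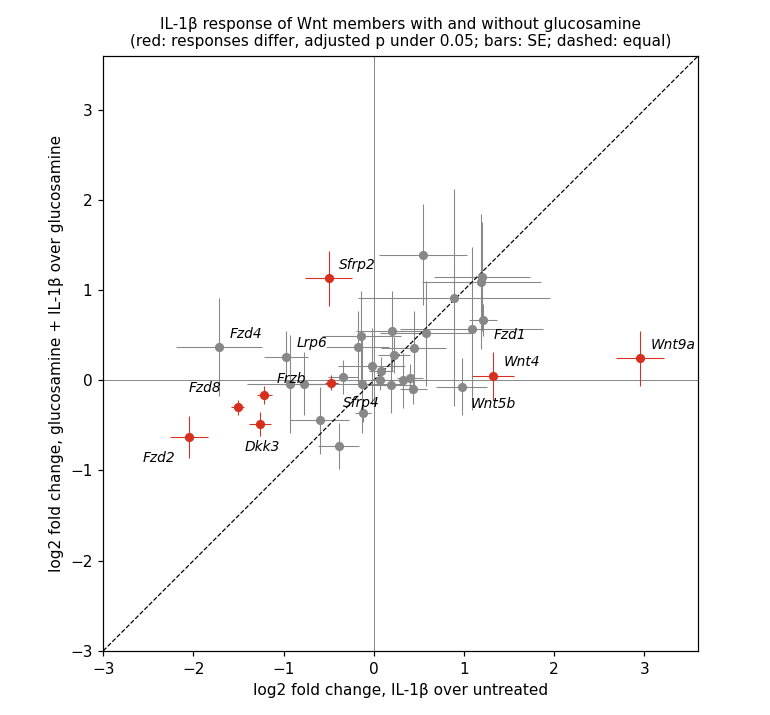
IL-1β response of the 37 tested member genes with glucosamine present (vertical axis, log2 fold change of both agents over glucosamine) against the response without it (horizontal axis, log2 fold change of IL-1β over untreated), with SE bars; red points differ between the axes with an adjusted p under 0.05, and the dashed line marks equal responses. The axes share no arrays. Wnt9a lies at 2.95 and 0.24, and most red points lie nearer 0 on the vertical axis.

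Of the 65 other Wnt pathway genes listed, 54 were measured. With IL-1β 6 rose and 10 fell (29.6%, against 24.1% of all probe sets), with glucosamine 1 rose and 9 fell (18.5%, against 14.7%), and with both agents 2 rose and 11 fell against untreated cultures (24.1%, against 23.9%). Between both agents and IL-1β 7 were higher and 9 lower (29.6%, against 23.3%), and against glucosamine alone none was called, where 1.79% of all were. Wls, which carries Wnt proteins to the cell surface, read 416, 496, 444 and 433 with both agents, 259, 296, 274 and 285 with IL-1β, 590 and 523 with glucosamine, and 667, 691 and 651 in untreated cultures. It was 2.41-fold lower with IL-1β (-1.27 ± 0.07, adjusted p = 1.14e-07) and 1.61-fold higher with both agents than with IL-1β (0.68 ± 0.07, adjusted p = 1.5e-05).

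The R-spondin receptors Lgr4 and Lgr5, which raise the cell's sensitivity to Wnt, fell with IL-1β but differed in the presence of glucosamine. Lgr4 read 96.3, 107, 91.2 and 72.7 with both agents, 11.4, 16.8, 30.3 and 15.9 with IL-1β, 127 and 109.5 with glucosamine, and 70.0, 76.6 and 62.9 in untreated cultures. IL-1β lowered it 3.99-fold, and it was 5.21-fold higher with both agents than with IL-1β (adjusted p = 0.000171 and 2.88e-05). Lgr5 read 36.4 to 45.2 in untreated cultures and 10.7 or less on each treated array, at least 6.86-fold lower with both agents, at least 5.87-fold with IL-1β and at least 6.86-fold with glucosamine. Cthrc1, a secreted cofactor of non-canonical Wnt signalling, was 2.49-fold lower with IL-1β and 2.34-fold higher with both agents than with IL-1β. Lower with glucosamine were Prickle2 (2.04-fold), a planar polarity gene, and, against untreated cultures with both agents, Ptk7 (2.42-fold), a Wnt co-receptor, and Porcn (2.06-fold), the enzyme that adds the lipid to Wnts. Tle2, a corepressor of TCF factors, was at least 2.24-fold lower with both agents than with IL-1β.

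Of 23 genes listed as Wnt targets, 17 were measured, and several of them also answer to other signals. The lists overlap: Apcdd1, Lgr5, Nkd1 and Znrf3 are also among the other pathway genes, and Axin2, Lef1 and Tcf7 are members. Their counts are thus not separate. With IL-1β 5 rose and 6 fell (64.7%, against 24.1% of all probe sets), and with glucosamine 2 rose and 3 fell (29.4%, against 14.7%), so the list did not move in 1 direction. Fosl1, an AP-1 subunit, and the hyaluronan receptor Cd44 rose 10.2-fold and 4.82-fold with IL-1β and 4.09-fold and 3.12-fold with glucosamine. Cyclin D1 (Ccnd1) read 465, 371, 483 and 621 with both agents, 1633, 1504, 1513 and 1812 with IL-1β, 547 and 451 with glucosamine, and 633, 728 and 708 in untreated cultures, 2.34-fold higher with IL-1β and 3.38-fold lower with both agents than with IL-1β. Znrf3, a ligase that removes Frizzled receptors, rose 2.02-fold with IL-1β. Nkd1, which binds Dishevelled, read 21.1, 26.6, 15.8 and 67.8 with IL-1β, and rose at least 4.87-fold over untreated cultures at the floor.

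Falling with IL-1β were Bmp4 (3.37-fold), Apcdd1 (2.93-fold), Ccn5 (2.39-fold), Ccn4 (2.15-fold), Twist1 (2.11-fold) and Lgr5. Bmp4, a bone morphogenetic protein, fell further with glucosamine: it read 72.8, 71.6, 70.5 and 57.8 with both agents, 168, 143, 156 and 124 with IL-1β, 82.7 and 71.8 with glucosamine, and 492, 492 and 501 in untreated cultures. Apcdd1, a membrane inhibitor of Wnt signalling, was 24.5 to 29.1, 25.0 to 31.5, 31.2 to 31.8 and 79.1 to 82.0 in the same groups. Ccn5, a matricellular protein, was 2131 to 2361 with both agents, 1013 to 1091 with IL-1β, 2318 and 2332 with glucosamine, and 2382 to 2674 in untreated cultures, 2.17-fold higher with both agents than with IL-1β (1.12 ± 0.06, adjusted p = 7.36e-08). Axin2, Lef1, Mmp7, Myc and Tnfrsf19 were not called in any comparison.

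**Figure D5:**
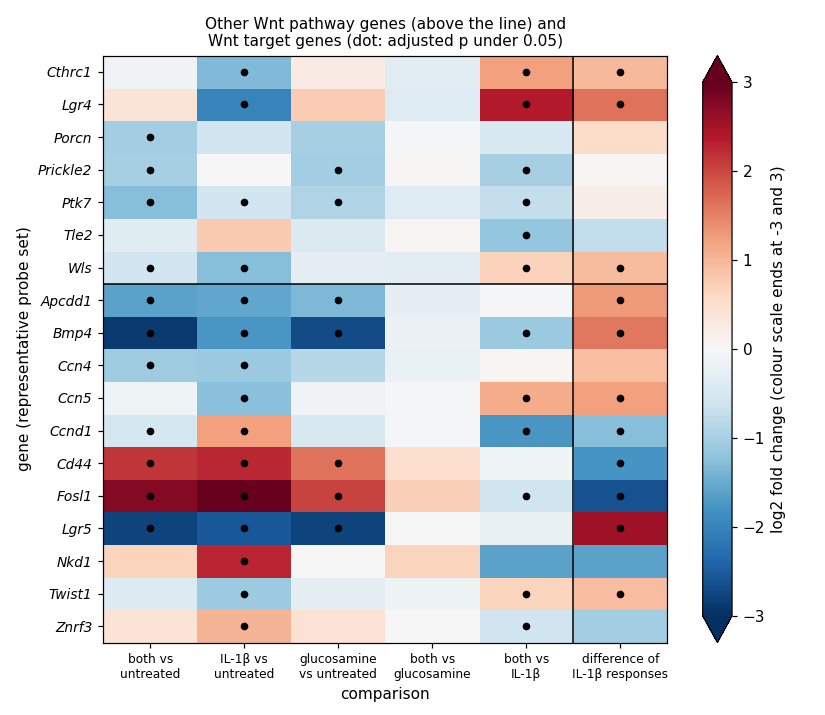
Log2 fold changes of other Wnt pathway genes (above the line) and Wnt target genes (below it) that were called with a change of at least 1 on the log2 scale, in the same comparisons as for the members; red is higher and blue lower in the group named first, and a dot marks an adjusted p under 0.05. Fosl1 and Cd44 are red and Bmp4, Lgr5 and Apcdd1 blue in every treated group against untreated cultures, whereas Lgr4, Ccn5, Cthrc1 and Wls are blue with IL-1β and red for both agents against IL-1β.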

How the data were processed

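RNA of 13 cultures was hybridised to Affymetrix rat expression arrays. The authors read the scans with Microarray Suite 5 and, per the methods, derived signals with Probe Profiler 1.3.11 and scaled each array globally; the labels name MAS5. The deposited values are signal intensities on a linear scale, some below 0. All 31099 probe sets were read, 57 controls were left out, and of the other 31042 the platform annotation gave 1 gene to 20826, several to 436 and none to 9780. Because values below 0 have no log, every intensity under 5.71, which marks the lowest 25% of all values, was set to 5.71 before log2. Of the probe sets, 29263 exceeded this floor somewhere and were tested, and 1779 did not. limma 3.58.1 in R 4.3.3 fitted the 4 groups together (lmFit and eBayes, trend in the variance allowed, residual df 9, two-sided, Benjamini-Hochberg adjustment over all tested probe sets). The fit was tested on simulated data. Precision is limited by the number of arrays, 2 with glucosamine alone.

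Groups came from the sample titles; a description field names glucosamine for every sample and was not used. Array-by-array values are given for member genes called with a log2 change of at least 1, Lrp6 among them, and for Axin2, Tcf7, Lef1, Ctnnb1 and Lrp5. They are also given for some others, such as Fzd3, Sfrp4 and Tcf7l2, whose called changes were smaller. Genes of the other lists are named where called with a log2 change of at least 1. The members, lists and tests were chosen with earlier results of these data known. Alternatives were other floors, scalings and filters, a replicate block, the methods' analysis of variance with Tukey's test, other probe sets of a gene, and leaving out arrays. Promoter windows were those of RefSeq (GRCr8).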

Additional observations from a re-analysis of the deposited data

Results flagged for a closer look

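In groups of 4 arrays, 7 of 32 combinations of gene and group held an array far from the other 3, after signals were set to the floor. The combinations share the same arrays, so the count cannot be set against a chance rate. Replicate d was that array in 6. With both agents replicate d read 24.1 for Axin2 (others -1.26 to 3.37), 329 for Fzd1 (others 205 to 221), 148 for Fzd4 (others 38.0 to 47.0) and 84.9 for Lef1 (others 33.1 to 35.4). With IL-1β replicate d read 82.3 for Lef1 (others 36.9 to 39.3) and 18.3 for Tcf7 (others 23.9 to 25.2). The remaining one was Wnt4 in replicate b with both agents, at 6.61 (others -1.38 to 3.60), near the floor. For Axin2 and Wnt4 the other 3 arrays were all at the floor, where any array above it counts as far.

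For 10 probe sets the IL-1β response differed between cultures with and without glucosamine by the interaction in limma. The log2 differences were -2.71 for Wnt9a, -1.27 for Wnt4, 1.42 for Fzd2, 2.38 for the dim Fzd4 probe set, 1.21 for Fzd8, 1.05 for Frzb, 0.78 for Dkk3, 1.06 for the dim Sfrp1 probe set, 1.63 for Sfrp2 and 0.45 for Sfrp4.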

How the results depend on the processing

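Of 66 called fold changes of member probe sets, 30 kept call and direction under every alternative run, 36 lost the call under at least 1, and none reversed on its own probe set. All 66 were kept when both replicate d arrays were left out. Fewer or more member probe sets were called as follows. For both agents against glucosamine (0 called), no filter gave 1 (1.61%, against 1.89% of all probe sets) and the replicate block 1 (1.72%, against 2.04%). Leaving out both replicate d arrays gave 5 (9.43%, against 3.24%) and the methods' analysis of variance 2 (3.45%, against 2.96%). For both agents against IL-1β (10 called), the replicate block gave 16 (27.6%, against 31.4% of all). Leaving out both replicate d arrays gave 21 (39.6%, against 34.6%) and the methods' test 6 (10.3%, against 9.24%). For IL-1β against untreated (19 called) the methods' test gave 10 (17.2%, against 9.62%). Calls it lost there included those of the dim Fzd5, Tcf7l1, Tcf7l2 and Sfrp1 probe sets and that of Ctnnb1. The interaction (10 called) gave 6 with the floor at the 10th percentile (9.84%, against 6.92% of all). Leaving out 1 array at a time gave 14 to 20 calls for IL-1β, 9 to 15 for glucosamine and 12 to 17 for both agents against untreated cultures, 0 to 2 for both agents against glucosamine, 9 to 18 for both agents against IL-1β (18 without replicate d with both agents) and 3 to 13 for the interaction (3 without glucosamine replicate a). After quantile normalization both agents against untreated cultures gave 0 up and 11 down (20%, against 23.2% of all), where 3 up and 12 down were called. The cause of these changes was not tested.

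For some called representatives a dimmer probe set had the opposite sign and was not called in that comparison: for Dkk3 0.98 with IL-1β, 0.35 with glucosamine, 0.15 with both agents and -1.40 in the interaction; for Sfrp4 0.60 with IL-1β; for Tcf7l2 0.038 with glucosamine, and 0.21, 0.26 and 0.10 for both agents against IL-1β. Where the representative was not called, a dimmer probe set was called with the opposite sign for Ctnnb1 with IL-1β (representative 0.23) and for Sfrp1 with IL-1β (-1.06, representative 1.19), with both agents (-1.06, representative 0.998) and in the interaction (1.06, representative -0.097). In their deviations from group means, 7 of 16 same-letter pairs of arrays correlated over 0.1 (-0.17 to 0.80), as did 14 of 46 other pairs (-0.67 to 0.56). Such deviations cancel out within each group, so these counts are partly fixed in advance and cannot show whether flasks were paired. Both replicate d arrays correlated at 0.80, and at -0.47 to -0.67 with replicates a to c of the other group given IL-1β. The replicate block thus takes up a deviation that the replicate d arrays share. Among replicates a to c of these groups, same-letter pairs (0.38 to 0.53) and other pairs (0.33 to 0.56) were alike. A deviation shared by the replicate d arrays raises both of these ranges. Signals near the floor limit Wnt4, Axin2 and the dim probe sets.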
